A study of Mus musculus with 6 samples.

Results

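Of the 3869 circular RNAs listed for differentiating mouse brown preadipocytes, 1427 carry no identifier of circBase, a public catalogue of circular RNAs. The 1176 of these that span at least 1000 and under 50000 bp of the genome from one joined end to the other are described here. They were chosen by these 2 entries of the deposited table and not by their levels, and are called uncatalogued circRNAs below. For comparison, 2061 circRNAs of the same span have a circBase identifier and are called catalogued. Just outside and just inside the span limits lay circRNAs of 998, 1019, 49451 and 50432 bp, with mean levels of 63.4, 72.0, 47.4 and 182 CPM, respectively.

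A circular RNA arises when the donor splice site at the end of an exon is joined to the acceptor site of the same or an upstream exon, a reaction called back-splicing. The product has no free end, resists exonucleases and usually holds a few internal exons of its host gene. First and last exons of a gene lack one of the required splice sites, so that circular RNAs usually start at the second exon or further downstream. Long flanking introns that can pair with each other favour the reaction, and one gene can give several circular RNAs that use the same donor or the same acceptor.

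The cells were stromal vascular cells of C57BL/6 mice aged 6 weeks, labelled as BAT preadipocytes from inguinal BAT. Day 0 is the state before induction. Day 4 follows 4 days with insulin, dexamethasone and isobutylmethylxanthine, and day 8 a further 4 days with insulin and the thyroid hormone T3, with serum throughout. Every day has 2 libraries, made from total RNA depleted of ribosomal and linear RNA. Linear RNA was therefore not measured, and the labelled cell type could not be checked against marker transcripts. The genes searched for were 15 thermogenic genes, 12 cell cycle genes and 15 genes of muscle, endothelium and macrophages. None of them was a named host of an uncatalogued circRNA. Hosts could be named for only 540 uncatalogued circRNAs, by the exon spacing described below. The remaining ones could not be searched, so these genes may host some of them. In cultured cell populations, fewer cells of a type and less RNA per cell cannot be told apart. Whether the replicates of a day are separate cultures or animals is not stated in the labels. The p-values therefore rest on the spread of these libraries alone, and that spread may be technical.

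The junctions that carry the main changes are shown first, because the join between 2 exons in the order opposite to the gene is what defines each of these RNAs. Each line gives, 5′ to 3′, the last 20 bases of the donor exon in lower case and the first 20 bases of the acceptor exon in capitals, from the GENCODE vM21 transcripts (GRCm38), with exons numbered in 1 transcript of the host. These are annotated exon ends, all coding, and not letters read from the libraries. Acss3 encodes an acyl-CoA synthetase of short-chain substrates, Nox4 a NADPH oxidase that makes hydrogen peroxide, Pdlim5 a PDZ and LIM domain protein of the actin cytoskeleton, Fbln2 the matrix protein fibulin, Bmper a secreted modulator of bone morphogenetic proteins and Acer2 an alkaline ceramidase of the Golgi. Of the Acss3 junctions, exons 3 to 5 shares its donor with exons 2 to 5 and its acceptor with exons 3 to 7, the first pair of Nox4 junctions share the end of exon 17, and the Pdlim5 pair stand for a circRNA at 0 at day 8 and one present at all days. The third Pdlim5 and the second Fbln2 junction share an end with the line before, for comparison.
Acss3 exons 3 to 5: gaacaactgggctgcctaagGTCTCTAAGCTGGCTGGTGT
Acss3 exons 2 to 5: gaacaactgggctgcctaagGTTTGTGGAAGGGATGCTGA
Acss3 exons 3 to 7: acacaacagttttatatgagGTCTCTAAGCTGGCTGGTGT
Acss3 exons 9 to 13: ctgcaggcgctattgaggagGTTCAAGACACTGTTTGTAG
Nox4 exons 13 to 17: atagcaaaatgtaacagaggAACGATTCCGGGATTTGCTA
Nox4 exons 12 to 17: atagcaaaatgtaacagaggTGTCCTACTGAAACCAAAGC
Nox4 exons 7 to 12: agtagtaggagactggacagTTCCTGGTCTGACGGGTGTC
Pdlim5 exons 4 to 7: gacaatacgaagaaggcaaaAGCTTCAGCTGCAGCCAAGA
Pdlim5 exons 8 to 9: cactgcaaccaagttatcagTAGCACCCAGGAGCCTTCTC
Pdlim5 exons 3 to 4: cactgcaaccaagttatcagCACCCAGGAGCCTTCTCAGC
Fbln2 exons 3 to 8: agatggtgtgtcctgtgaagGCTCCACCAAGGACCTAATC
Fbln2 exons 3 to 5: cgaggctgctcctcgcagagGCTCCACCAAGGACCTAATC
Bmper exons 3 to 6: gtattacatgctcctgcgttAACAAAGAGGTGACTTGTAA
Bmper exons 7 to 13: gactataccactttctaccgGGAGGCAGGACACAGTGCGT
Acer2 exons 2 to 4: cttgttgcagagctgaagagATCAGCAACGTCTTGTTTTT

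Levels are CPM, counts scaled to a common library total, as the authors deposited them. Within a library each CPM was a whole multiple of 1 step, taken here as 1 read, and the smallest non-zero value was 2 steps. On this scale the libraries held 40384 to 45733 reads over all listed circRNAs and 5326 to 6576 on the uncatalogued ones, and 1 read was worth 21.9 to 24.8 CPM. An entry of 0 may stand for 1 read. All listed circRNAs had non-zero values in both replicates of 1 or more days, a selection that raises differences between days for circRNAs with few reads. Days were compared by limma on log2(CPM + 43.7), where 43.7 CPM is the smallest non-zero value, in 1 fit of all 6 libraries and 3869 circRNAs. "Called" means a Benjamini-Hochberg adjusted p under 0.05 over the whole table, and fold changes are log2 values on this scale. No fold change is given against a day listed at 0 in both libraries. The day 4 and day 8 comparisons with day 0 share the day 0 libraries, and those of day 8 share the day 8 libraries.

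The uncatalogued circRNAs took a larger share of all CPM at day 8 than at the earlier days. The share was 14.1% and 13.8% at day 0, 13.4% and 13.2% at day 4, and 15.3% and 15.6% at day 8. No 2 days overlapped. With 2 libraries against 2, the exact two-sided permutation test gave p = 0.3333 for each pair of days, the smallest value it can give. Among the 177 that were above 0 in all 6 libraries, the corresponding shares were 6.48%, 6.39% and 6.57%. A circRNA that appeared or was lost between days cannot be among these 177, so their shares do not place the difference.

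More of the uncatalogued circRNAs were detected at day 8, as the plot of shares and levels by library shows. Above 0 were 704 and 750 at day 0, 727 and 660 at day 4, and 789 and 824 at day 8. The same was seen in the catalogued, with 1574 and 1653, 1670 and 1587, and 1693 and 1711, and in all listed circRNAs, with 2711 and 2853, 2834 and 2661, and 2968 and 3023. For the uncatalogued, day 8 lay above both other days, and days 0 and 4 overlapped (exact permutation p = 0.3333 for day 8 against each, the smallest possible, and 0.667 for day 4 against day 0). With at least 5 reads required, the numbers were 438 and 408, 402 and 362, and 419 and 428, and days 0 and 8 overlapped. At this limit day 8 lay above day 4 without overlap (exact permutation p = 0.3333) and no longer above day 0. Detection in 1 day alone, in both of its libraries, was found for 86 at day 0, 61 at day 4 and 110 at day 8, with a median of 8, 7 and 7 reads summed over the libraries. The numbers were 154, 122 and 212 over all 3869 listed circRNAs, and 36, 37 and 58 among the 2061 catalogued. In each class the number was the highest at day 8.

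**Figure D1:**
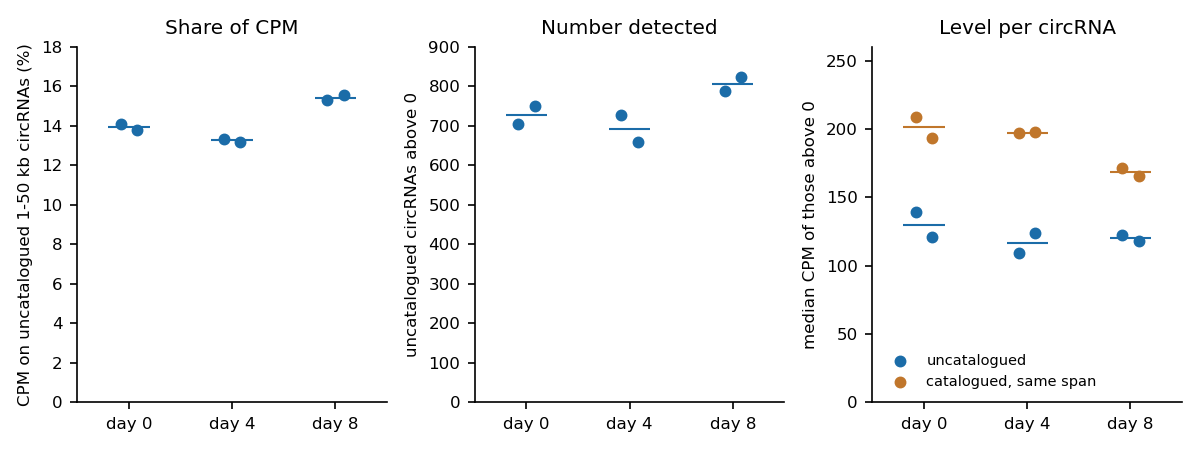
Points are libraries and lines the means of 2 libraries, by day. From left to right, the share of CPM on uncatalogued circRNAs of this span (13.2% to 15.6%), the number of them above 0 (660 to 824), and the median CPM of those above 0 beside that of catalogued circRNAs of the same span, which is the higher in all 6 libraries.

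Uncatalogued circRNAs were rarer than catalogued ones of the same span in every library. The median CPM of those above 0 was 139 and 121 at day 0, 109 and 124 at day 4, and 122 and 118 at day 8, against 209 and 194, 197 and 198, and 171 and 166 CPM for the catalogued. Their ratio was 0.650 ± 0.0612 (SD, n = 6 libraries) and was below 1 in 6 of 6 libraries (exact two-sided sign-flip permutation test over libraries, p = 0.03125, the smallest possible). By the mean over all circRNAs of each class, zeros included, the ratio was 0.370 ± 0.0342 (SD, n = 6). Above 0 in all 6 libraries were 15.1% of the uncatalogued and 42.8% of the catalogued, and 214 (18.2%) and 936 (45.4%) reached 10 or more reads in 2 or more libraries. Most uncatalogued circRNAs thus rest on few reads: 1068 of 1176 averaged under 10 reads a library.

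The uncatalogued circRNAs spanned a median of 8388 bp, against 8404 bp for the catalogued. Both classes were cut to the same span limits, so like spans follow in part from the choice. The uncatalogued lay on 20 chromosomes, 607 on the plus and 569 on the minus strand, and fell into 952 loci of circRNAs that overlap on 1 strand. In 799 of these loci there was 1 uncatalogued circRNA, in 110 there were 2 and in 43 there were 3 or more. A catalogued circRNA lay in the same locus for 413 (35.1%). Both ends were also ends of catalogued circRNAs for 17, such as Arih1 exons 2 to 5, 1 end was for 312, and neither end was for 847 (72.0%). An end shared with any listed circRNA was found for 545 (46.3%), against 1059 (51.4%) of the catalogued.

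Hosts were named by exon spacing, since no annotation of mm9, the build of the deposited coordinates, was used. A locus received a host when at least 3 of its ends, by their mutual distances, coincided with exon boundaries of exactly 1 gene of its chromosome and strand in GENCODE vM21. Of 710 loci with enough ends, 644 (90.7%) matched 1 gene, against 19 (2.68%) after the ends were mirrored. Loci with fewer ends have no host here, which leaves 540 uncatalogued circRNAs in matched loci, and 510 of them had both ends on exon boundaries of their host, over 333 host genes.

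Most held a few internal coding exons, as the plot of exon numbers shows. Of the 504 with both ends in 1 transcript, the median was 4 exons with quartiles of 3 and 5, as for the 1008 catalogued. Between 2 and 5 exons were spanned by 83.7%, and by 80.8% of the catalogued. None contained the first exon and 1 contained the last. Exon 2 was the first exon of 167 (33.1%), against 386 (38.3%) of the catalogued. A single exon was spanned by 1 only, exon 2 of Zbtb16 (chr9:48639848-48641204, minus strand in mm9), a zinc finger transcription factor. Their exons added up to a median of 442.5 bases (479 in the catalogued), were all coding in 431 (85.5%), and were flanked by introns with a median of 11489 bases upstream and 7858 bases downstream (14409.5 and 11042 in the catalogued). These figures describe the hosts that could be matched and were not tested.

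**Figure D2:**
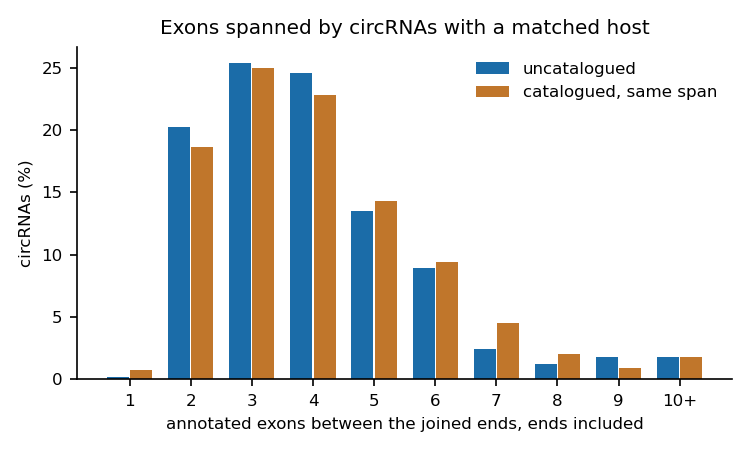
Percent of circRNAs (y axis) by the number of annotated exons from the acceptor to the donor exon (x axis) for 504 uncatalogued and 1008 catalogued circRNAs of the same span with a matched host. In both classes 2, 3 and 4 exons are the most frequent, and 83.7% and 80.8% span 2 to 5.

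The 10 most abundant uncatalogued circRNAs had mean levels of 982 to 5091 CPM, took 12.2% of the CPM of the class, and 9 of them were called in no comparison (lowest adjusted p of limma 0.0580). First was chr19:4792398-4794009, minus strand, with CPM of 4153 and 2881 at day 0, 6538 and 7082 at day 4 and 5414 and 4477 at day 8, which has no matched host. Its day 4 libraries were the highest and did not overlap those of day 0, with an adjusted p of 0.058. Second was Arhgap10 exons 9 to 13 (chr8:79906624-79935027, minus strand), from a gene for a GTPase-activating protein, with CPM of 1462 and 1647 at day 0, 1028 and 1808 at day 4 and 1959.9 and 2464 at day 8, where day 8 lay above both other days, which overlapped. It shares an end with 1 other listed circRNA, beside which it held 87.0% to 92.6% of the CPM in every library.

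The ubiquitin ligase gene Nedd4 gave a pair that share the acceptor of exon 2. Nedd4 exons 2 to 6 (chr9:72517759-72533921, plus strand) had CPM of 1415 and 1186 at day 0, 1443 and 1634 at day 4 and 1788 and 1658 at day 8. Nedd4 exons 2 to 5 (chr9:72517759-72525338, plus strand) had CPM of 1856 and 1138 at day 0, 1115 and 693 at day 4 and 808 and 1019 at day 8. Of the CPM at their ends, the shorter circRNA held 50.0 and 44.3% at day 0, 39.5 and 26.9% at day 4 and 26.2 and 34.1% at day 8, with no call of this ratio (adjusted p of limma 0.543 for day 8 against day 0).
Nedd4 exons 2 to 6: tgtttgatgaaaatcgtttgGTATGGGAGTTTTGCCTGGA
Nedd4 exons 2 to 5: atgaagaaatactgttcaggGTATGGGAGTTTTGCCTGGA
The Nedd4 junctions have the same capitals, the start of exon 2, and differ in the donor.

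The abundant circRNA that was called was the tenth by mean level, chr6:129130651-129134331, plus strand, without a matched host. It had CPM of 302 and 387 at day 0, 875 and 743 at day 4 and 1666 and 1919 at day 8. No days overlapped, and its levels followed the order of the days. It rose by day 8 by 2.25 ± 0.24 (SE) against day 0 (adjusted p of limma 0.00207, at most 0.0264 when any 1 library was left out). Against day 0 it was also called at day 4 (1.14 ± 0.24 (SE), adjusted p 0.0406), a call that no single omission kept (adjusted p 0.0652 to 0.136).

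After 4 days of induction, most calls of uncatalogued circRNAs against day 0 rested on few reads. In the whole-table fit there were 145 calls (66 higher, 79 lower), 12.3% of 1176, where 8.12% of all listed circRNAs were called, 3.85% higher and 4.26% lower. Of these 145, 137 averaged under 10 reads a library, and for 140 one of the days held only zeros. When the fit was restricted to circRNAs that reached 10 reads in 2 or more libraries, it called 8 of 214 (3.74%), 7 higher and 1 lower, against 3.65% of all circRNAs in that fit, 2.27% higher and 1.39% lower. The shares in either direction were close, and a circRNA can pass that limit through the day in which it is high. This count is therefore a description. The unadjusted p of limma was under 0.05 for 42 of the 214 and for 277 of all 1368 in that fit. Without the mean-variance trend limma called none of the 1176 (unadjusted p under 0.05 for 313), and 17 were called when the fit held the 4 libraries of these days alone. Over all 3869 listed circRNAs, limma called 0 without the trend (unadjusted p under 0.05 for 861) and 37 in the smaller fit.

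A pair of Bmper circRNAs were higher at day 4 than at day 0. Bmper exons 3 to 6 (chr9:23058816-23105466, plus strand; 357 exonic bases) had CPM of 162 and 0 at day 0, 1203 and 1015 at day 4 and 514 and 639.6 at day 8. Both day 4 libraries lay above all others, and the difference from day 0 was 3.60 ± 0.72 (SE) (adjusted p of limma 0.0352). Without day 4 replicate 1 or 2 or day 8 replicate 1 or 2 the call was lost (adjusted p up to 0.218). Bmper exons 7 to 13 (chr9:23170636-23211275, plus strand), which shares its donor with 2 other circRNAs, had CPM of 0 in both libraries at day 0, 241 and 248 at day 4 and 0 in both libraries at day 8. It was seen at day 4 alone, with 11 and 10 reads, and was called higher than day 0 (adjusted p 0.00593) and lower at day 8 than at day 4 (adjusted p 0.0045). The call against day 0 was lost without either day 0 or either day 8 library. The call of day 8 against day 4 was lost without either day 8 library.

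Acer2 exons 2 to 4 (chr4:86532062-86546523, plus strand) was listed at days 4 and 8 only. It had CPM of 0 in both libraries at day 0, 219 and 272 at day 4 and 318 and 355 at day 8. Days 4 and 8 both lay above day 0 (adjusted p of limma 0.0358 and 0.0153), and their own difference was not called (adjusted p 0.75). The day 4 call was lost whichever library was left out (adjusted p 0.0549 to 0.141), and the day 8 call without either day 8 library (adjusted p up to 0.125). A like course was seen at chr2:139557606-139566139, plus strand, with CPM of 0 in both libraries at day 0, 241 and 396 at day 4 and 441 and 355 at day 8, without a matched host (adjusted p 0.0211 for day 4 and 0.0098 for day 8, each against day 0, and up to 0.119 and 0.112 without a library). Another unhosted circRNA, chr19:14590849-14638941, minus strand, peaked at day 4 with CPM of 0 in both libraries at day 0, 415 and 347 at day 4 and 73.5 and 94.8 at day 8 (adjusted p 0.0323 against day 0, 0.0756 to 0.0871 with a library left out).

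Of the 8 circRNAs named as higher at day 4 by the size of their change, 1 kept its call whichever library was left out, chr6:8487817-8532790, plus strand. It had CPM of 348 and 291 at day 0, 1137 and 1238 at day 4 and 857 and 758 at day 8, so that the days did not overlap. The difference between days 4 and 0 was 1.77 ± 0.23 (SE) (adjusted p of limma 0.00614, at most 0.0412 without a library, and 0.0629 with the 4 libraries of these days alone). No named call of day 4 against day 0 passed in that smaller fit or without the trend.

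The circRNA named as lower at day 4 came from Zbtb38, which encodes a zinc finger protein that binds methylated DNA. Zbtb38 exons 3 to 5 (chr9:96618629-96632732, minus strand) had CPM of 1439 and 1549.7 at day 0, 43.7 and 124 at day 4 and 343 and 521 at day 8. Both day 0 libraries were far above the rest and day 4 was the lowest. It fell by day 4 with a log2 difference of -3.67 ± 0.42 (SE) (adjusted p of limma 0.00393, up to 0.0658 without either day 0 library) and was higher at day 8 than at day 4 by 1.95 ± 0.42 (SE) (adjusted p 0.0402, up to 0.246 without any library other than day 4 replicate 2). Day 8 against day 0 did not pass (adjusted p 0.052). No junction is printed for it because its exons are not all coding.

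**Figure D3:**
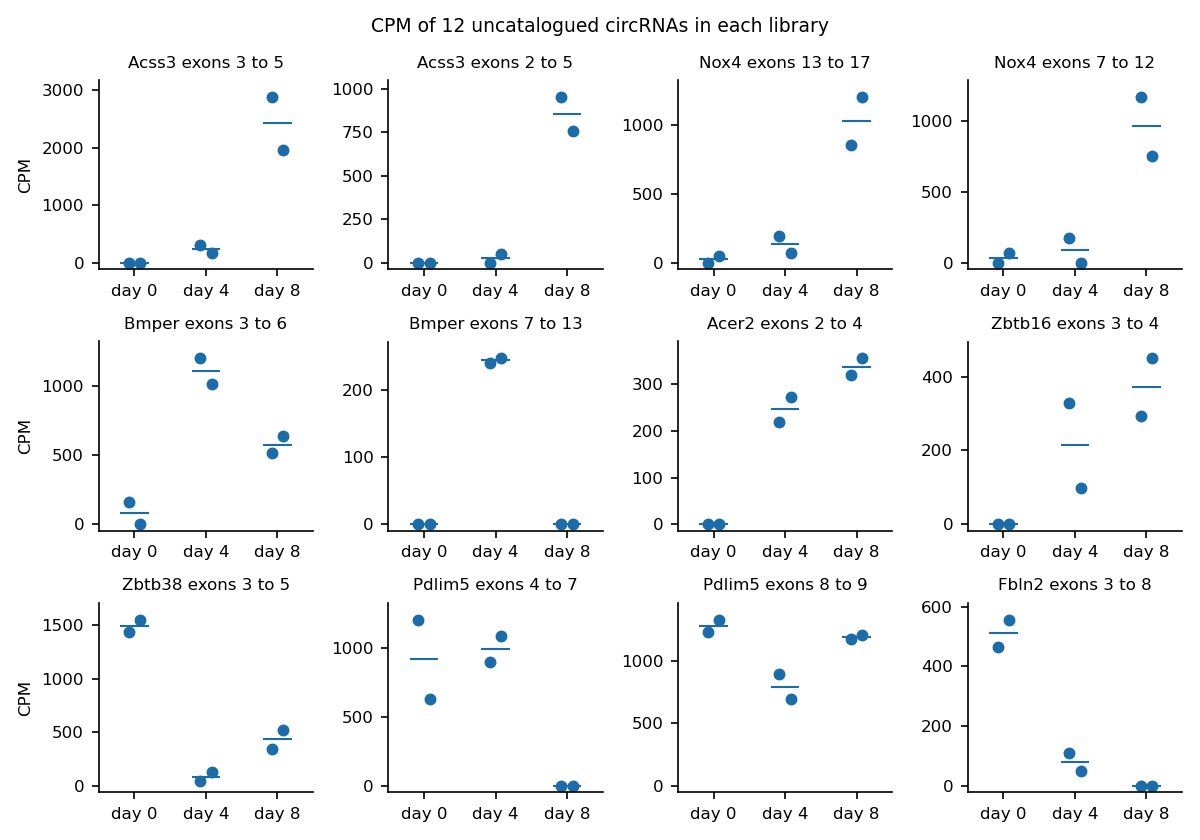
CPM of 12 uncatalogued circRNAs (y axis, linear, scaled to each panel) by day, with 1 point per library and lines at the means of 2 libraries. Acss3 and Nox4 circRNAs are high at day 8, Bmper exons 7 to 13 at day 4 alone and Fbln2 exons 3 to 8 at day 0, while Pdlim5 exons 4 to 7 is at 0 at day 8 and Pdlim5 exons 8 to 9 is present throughout.

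By day 8, among called circRNAs with at least 10 reads in 2 libraries, the fitted rise was largest for an Acss3 circRNA, followed by 1 without a matched host, 2 more of Acss3 and 1 of Nox4, and the fitted fall was largest for a Pdlim5 circRNA. Against day 0, 221 of 1176 (18.8%) were called in the whole-table fit, 129 higher and 92 lower, where 12.3% of all listed circRNAs were called, 7.31% higher and 5.01% lower. Of these 221, 208 averaged under 10 reads a library, and for 213 the libraries of day 0 or of day 8 held only zeros. The fit limited to 10 reads in 2 or more libraries called 22 of 214 (10.3%), 17 higher and 5 lower, against 6.73% of all its circRNAs, 4.31% higher and 2.41% lower, again a description. For 16 of these 22, the libraries of day 0 or of day 8 held only zeros. Without the trend, limma called 122 of the 1176 (10.4%), against 6.69% of all listed circRNAs.

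Acss3 exons 3 to 5 (chr10:106482269-106490572, minus strand; 465 exonic bases) had CPM of 0 in both libraries at day 0, 306 and 173 at day 4 and 2891 and 1966 at day 8. It was listed at 0 at day 0, low at day 4 and at 118 and 83 reads at day 8. It rose against day 0 at day 4 (adjusted p of limma 0.0145) and at day 8 (adjusted p 0.00092, at most 0.0188 without any 1 library). Between days 4 and 8 the rise was 3.14 ± 0.42 (SE) (adjusted p 0.00571, up to 0.108 without either day 8 library). The day 4 call was lost without any library other than day 4 replicate 2 (adjusted p up to 0.0854).

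The other Acss3 circRNAs that reached 10 reads in 2 libraries include a pair that use an end of this junction and 1 that uses neither. Acss3 exons 2 to 5 (chr10:106482269-106522007, minus strand), with the same donor letters as exons 3 to 5, had CPM of 0 in both libraries at day 0, 0 and 49.5 at day 4 and 955 and 758 at day 8. Acss3 exons 3 to 7 (chr10:106460710-106490572, minus strand), with the same acceptor letters, had CPM of 0 in both libraries at day 0, 241 and 173 at day 4 and 735 and 853 at day 8. Acss3 exons 9 to 13 (chr10:106385712-106425965, minus strand), further downstream in the gene and with other letters on both sides, had CPM of 0 in both libraries at day 0, 0 in both libraries at day 4 and 269 and 261 at day 8. In each of the 3, both day 8 libraries lay above all others. Their adjusted p for day 8 against day 0 was 0.0113, 0.00236 and 0.00469, and reached 0.0655, 0.0539 and 0.0543 with 1 library left out (either day 0 or either day 8 library, day 8 replicate 2, and either day 0 library, in this order).

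Nox4 gave 7 uncatalogued circRNAs, of which 5 were called higher by day 8 against day 0. Nox4 exons 13 to 17 (chr7:94509238-94524792, plus strand) had CPM of 0 and 48.4 at day 0, 197 and 74.3 at day 4 and 857 and 1208 at day 8. Day 8 lay above the other days by 4.06 ± 0.62 (SE) against day 0 (adjusted p of limma 0.00863, up to 0.15 without day 0 replicate 1 or either day 8 library). Nox4 exons 12 to 17 (chr7:94487467-94524792, plus strand), which joins the same donor to the acceptor of exon 12, had CPM of 0 in both libraries at day 0, 0 in both libraries at day 4 and 367 and 379 at day 8 (adjusted p 0.00766, up to 0.0724 without either day 0 library). It was listed at day 8 alone. Nox4 exons 7 to 12 (chr7:94462574-94487527, plus strand) was as abundant, with CPM of 0 and 72.6 at day 0, 175 and 0 at day 4 and 1176 and 758 at day 8, and did not pass (adjusted p 0.0577). The day 0 libraries of this circRNA differed, with 0 and 3 reads.

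Exons 13 to 17 held 70.0 and 76.1% of the CPM at its ends in the day 8 libraries and all of it in the day 4 libraries. The 4 remaining Nox4 circRNAs, exons 3 to 6, 3 to 12, 5 to 12 and 12 to 13, had at most 8 reads in any library. Together the 7 had CPM of 0 and 266 at day 0, 372 and 74.3 at day 4, and 3062 and 2843 at day 8. Over the whole locus (chr7:94444294-94524792, plus strand), which holds 1 further circRNA, the summed CPM was called higher at day 8 (adjusted p of limma 0.0220). This call was lost without day 0 replicate 1 or 2 or day 8 replicate 1 or 2, with adjusted p up to 0.212.

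Circular RNAs without a matched host also appeared by day 8. A circRNA at chr5:135597376-135599887, plus strand, had CPM of 0 in both libraries at day 0, 65.6 and 49.5 at day 4 and 1298 and 1113 at day 8 (adjusted p of limma 0.00236 against day 0, 0.0518 without day 8 replicate 1). Between days 4 and 8 it rose by 3.63 ± 0.53 (SE) (adjusted p 0.00789, up to 0.119 without either day 8 library). One at chr9:86539918-86573881, minus strand, had CPM of 0 in both libraries at day 0, 0 in both libraries at day 4 and 735 and 639.6 at day 8 (adjusted p 0.00863 against day 0, up to 0.056 without either day 0 library). Of all uncatalogued circRNAs listed at day 8 alone, this one had the most reads, 57 in all. The remaining 2 named as higher, on chromosomes X and 9, had adjusted p of 0.0465 and 0.0142, which rose to 0.235 and 0.139 without a library (any of the 6, and either day 8 library, respectively).

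Pdlim5 exons 4 to 7 (chr3:141966907-141977412, minus strand; 672 exonic bases) was lost between days 4 and 8. It had CPM of 1207 and 629.6 at day 0, 897 and 1089.5 at day 4 and 0 in both libraries at day 8, from 52, 26, 41, 44, 0 and 0 reads in the 6 libraries. Days 0 and 4 overlapped (adjusted p 0.883). Day 8 was lower than day 0 (adjusted p of limma 0.00172) and than day 4 (adjusted p 0.00154), and both calls held whichever library was left out (at most 0.0248 and 0.0334). It shares no end with another listed circRNA.

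Other uncatalogued circRNAs of Pdlim5 were present at day 8. Pdlim5 exons 8 to 9 (chr3:141922094-141940965, minus strand) had CPM of 1229.8 and 1332 at day 0, 897 and 693 at day 4 and 1176 and 1208 at day 8, with no call (adjusted p of limma 0.827 for day 8 against day 0). Pdlim5 exons 6 to 8 (chr3:141940781-141967433, minus strand) had CPM of 92.8 and 533 at day 0, 284 and 223 at day 4 and 294 and 450.1 at day 8, with the day 0 libraries far apart. The junction named exons 3 to 4, in the numbering of a shorter transcript, has the same donor as exons 8 to 9 and an acceptor 3 bases further downstream, as the printed letters show. It had at most 4 reads in any library. Whether the change of exons 4 to 7 differed from that of exons 8 to 9 was not tested, because they share no end.

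Fbln2 exons 3 to 8 (chr6:91200852-91207820, plus strand) had CPM of 464 and 557 at day 0, 109 and 49.5 at day 4 and 0 in both libraries at day 8. The days did not overlap, and day 8 was lower than day 0 (adjusted p of limma 0.0163, up to 0.0812 without either day 0 or either day 8 library). Neither interval alone was called (adjusted p 0.112 up to day 4 and 0.284 after it). At the same acceptor, Fbln2 exons 3 to 5 (chr6:91200852-91204615, plus strand) had CPM of 69.6 and 0 at day 0, 0 in both libraries at day 4 and 196 and 118 at day 8. Of the CPM of these 2 circRNAs, the longer held 87.0 and 100% at day 0, 100% in both day 4 libraries and 0% in both day 8 libraries. The change of this ratio did not pass over all circRNAs with a shared end (adjusted p of limma 0.285). Both rest on few reads, with 20, 23, 5, 2, 0 and 0 for the longer and 3, 0, 0, 0, 8 and 5 for the shorter.

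Diaph3 exons 21 to 22 (chr14:87251879-87266449, minus strand), from a gene for a formin that nucleates actin filaments, had CPM of 603 and 847 at day 0, 590.4 and 198 at day 4 and 98.0 and 118 at day 8. Day 8 lay below both other days, by -2.32 ± 0.53 (SE) against day 0 (adjusted p of limma 0.0419, up to 0.245 without either day 0 or either day 8 library). Unhosted circRNAs at chr5:125598987-125605350, minus strand, and at chr1:137428926-137433876, minus strand, were lower at day 8 with adjusted p of 0.0313 and 0.0402. Leaving out 1 library raised these to at most 0.176 and 0.204, and all libraries but day 4 replicate 2 in the first case and day 8 replicate 1 in the second ended the call.

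Between days 4 and 8, when the medium changed to insulin and T3, 178 uncatalogued circRNAs were called (115 higher, 63 lower), 15.1% of 1176, against 9.56% of all listed circRNAs, 6.02% higher and 3.54% lower. Of the 178, 169 averaged under 10 reads a library, and for 170 the libraries of day 4 or of day 8 held only zeros. The fit limited by reads called 6 of 214 (2.80%), 5 higher and 1 lower, against 1.02% of all its circRNAs, 0.731% higher and 0.292% lower. Without the trend 1 of the 1176 was called, and 3 of all 3869 listed circRNAs. Of the 8 higher and 5 lower at day 8 that were named by the size of their change with at least 10 reads in 2 libraries, Pdlim5 exons 4 to 7 kept its call whichever library was left out and the other calls were each lost without some library. Rarer circRNAs of the gene lists and loci, such as Acss3 exons 9 to 11 and Acly exons 7 to 16, also kept theirs. These 2 had at most 7 and 2 reads in any library, and 2 reads is the smallest non-zero value. Values at 0 in both libraries of a day have no spread there, so keeping a call does not make these firm. Map2k5 exons 9 to 13 (chr9:63128826-63150967, minus strand), from the gene of a kinase upstream of ERK5, was among the lower, with CPM of 418 and 436 at day 0, 590.4 and 718 at day 4 and 269 and 189.5 at day 8, a difference of -1.36 ± 0.31 (SE) between days 8 and 4 (adjusted p of limma 0.0481, 0.0543 to 0.163 when any 1 library was left out). An unhosted circRNA at chr13:105156874-105190086, plus strand, had CPM of 487 and 508 at day 0, 1115 and 792 at day 4 and 367 and 308 at day 8, highest at day 4 (day 8 against day 4 -1.37 ± 0.28 (SE), adjusted p 0.0328, up to 0.145 without any library but day 4 replicate 2).

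Calls in the whole table were concentrated among the least abundant circRNAs, as the plot of calls by reads shows. Of 585 uncatalogued circRNAs averaging under 3 reads a library, 132, 193 and 160 were called in the comparisons of day 4 with day 0, day 8 with day 0 and day 8 with day 4 (22.6%, 33.0% and 27.4%). Of the catalogued in this class, 12.7%, 19.3% and 18.1% were called. Of 275 uncatalogued averaging 3 to 5 reads, 3, 5 and 6 were called. The 41 uncatalogued with 20 or more reads gave 6, 5 and 5 calls (14.6%, 12.2% and 12.2%), against 8.58%, 12.5% and 7.26% of such catalogued ones. Circular RNAs listed at 0 in both libraries of a day have no spread there, and those with few reads and 0 elsewhere fill the first class. Over the 3 comparisons, 290 uncatalogued circRNAs (24.7%) were called at least once, 29 of them among the 214 that reached 10 reads in 2 or more libraries. The share called at least once was not counted over all listed circRNAs, of which 8.12%, 12.3% and 9.56% were called in the single comparisons.

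**Figure D4:**
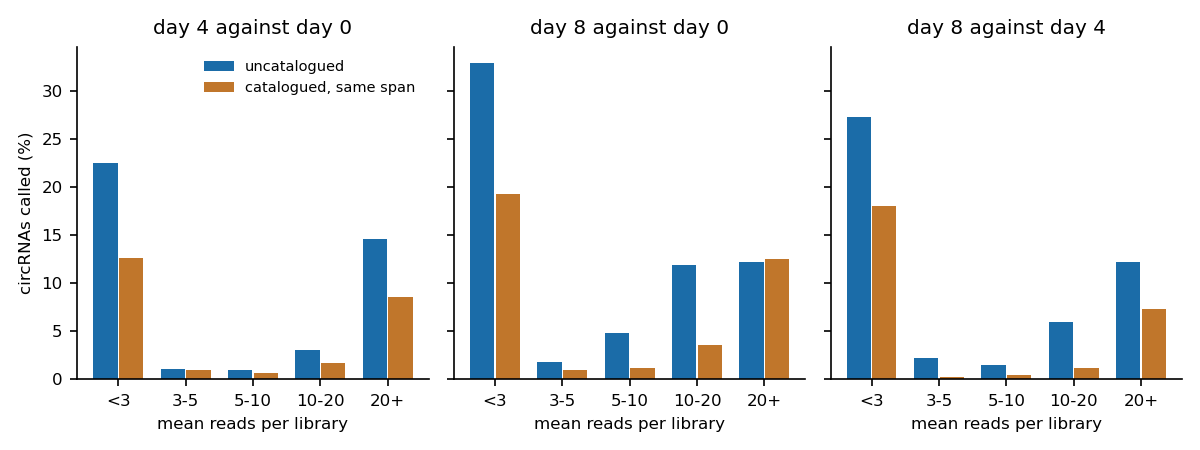
Percent of circRNAs called (adjusted p under 0.05, whole table) by mean reads per library, for uncatalogued and catalogued circRNAs of the same span, in 3 comparisons. In each panel the class under 3 reads has the highest share for the uncatalogued, 22.6%, 33.0% and 27.4%.

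No uncatalogued circRNA that shares an end with another was called for a change in its ratio to it on the main scale. For the 545 with such a partner, the ratio to the summed CPM of the partners was fitted together with that of all 1893 circRNAs with a partner. Limma called 0 in each comparison (background 0.0%), with 95 (17.4%), 90 (16.5%) and 67 (12.3%) of the 545 at an unadjusted p under 0.05 for day 4 against day 0, day 8 against day 0 and day 8 against day 4. Of all 1893, 265 (14.0%), 261 (13.8%) and 188 (9.93%) were under this limit. With a pseudocount of 1 CPM in place of 43.7 CPM, 54, 54 and 42 of the 545 were called. The share called among all 1893 at that pseudocount is not given here, so these counts do not set the uncatalogued apart. Acss3 exons 3 to 5 held 56.0 and 43.7% of the CPM at its ends at day 4 and 63.1 and 55.0% at day 8, where Acss3 exons 3 to 7 held 40.7 and 50.0% and 17.2 and 25.4%. The latter ratio was lower in both day 8 libraries than in both of day 4, without passing the test (adjusted p of limma 0.48).

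By host gene, 15 of 21 uncatalogued circRNAs from a list of lipid and intermediary metabolism genes had a call in the upward direction between days 0 and 8. The share was 7.31% over all listed circRNAs, and 18.8% of the uncatalogued were called in either direction. Several genes of this list, such as Acss3, Ghr, Gbe1 and Bckdhb, and of the other lists were entered with earlier results of these data known, so the counts are not independent evidence of their direction. In this list and those below, circRNAs were counted by the host of their locus. Some of Acss3, Bckdhb and Ghr, labelled in the plot, do not have both of their own ends on exon boundaries of that gene. Called circRNAs of Acss3 and Ghr are among these. Of 33 genes, 6 hosted 21 uncatalogued circRNAs. Against day 0, 2 were higher and 0 lower at day 4 (0 to 1 with 1 library left out), where 3.85% of all listed circRNAs were higher. At day 8, 15 were higher than at day 0, 0 lower and 6 not called (10 to 13 with 1 library left out, 10 without the trend). Against day 4, 12 were higher and 0 lower at day 8, where 6.02% of all listed circRNAs were higher, and none of the 12 passed without the trend. The median log2 difference between days 8 and 0 was 1.59, against 0.0059 over all uncatalogued and 0 over all listed circRNAs. These medians are of fitted values that include days listed at 0, and depend on the pseudocount.

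The plot of metabolic hosts shows each of these circRNAs. All 6 Acss3 circRNAs were called at day 8 against day 0, both of the citrate lyase gene Acly, 2 of 3 of Cd36, the fatty acid transporter, 3 of 7 of the growth hormone receptor gene Ghr, 1 of 2 of Bckdhb, a subunit of the branched-chain ketoacid dehydrogenase, and the 1 of Gbe1, the glycogen branching enzyme. Outside Acss3 they are rare, with at most 5 to 12 reads in a library by host. Within Acss3, exons 9 to 13 and exons 9 to 11 had at most 11 and 7 reads. The Acss3 circRNA without both ends on exons had at most 3. Of the whole list, 5 reached 10 reads in 2 or more libraries, and 4 of these were called at day 8 against day 0. Cd36 exons 4 to 8 (chr5:17316999-17326418, minus strand) had CPM of 0 in both libraries at day 0, 0 and 49.5 at day 4 and 147 and 284 at day 8 (adjusted p of limma 0.0456, up to 0.226 without any library but day 4 replicate 2). Gbe1 exons 3 to 7 (chr16:70401979-70441564, plus strand) had CPM of 0 in both libraries at day 0, 65.6 and 49.5 at day 4 and 245 and 213 at day 8 (adjusted p 0.0421, up to 0.146 without either day 0 or either day 4 library). In both, the day 8 libraries were the highest.

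**Figure D5:**
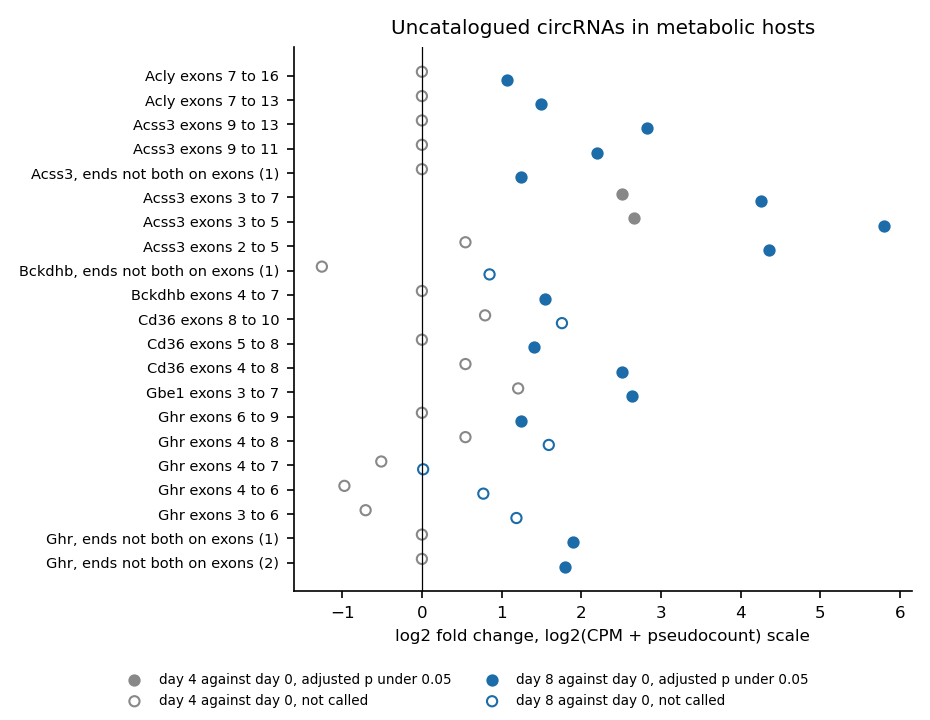
Fitted log2 differences, on the log2(CPM + 43.7) scale (x axis), of 21 uncatalogued circRNAs in hosts of lipid and intermediary metabolism, at day 4 (grey) and day 8 (blue) against day 0, filled where the adjusted p was under 0.05. At day 8, 15 are filled and all 15 lie above 0, with Acss3 exons 3 to 5 the farthest right.

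Summed over loci, 13.5% of 2511 loci of all listed circRNAs were called for day 8 against day 0, 7.89% higher. The call was firmest for Acss3 among the loci with 3 or more uncatalogued circRNAs called one way. The 4 uncatalogued circRNAs of the locus at chr10:106460710-106522007, minus strand, added up to 0 in both day 0 libraries, 547 and 396 CPM at day 4, and 4630.2 and 3648 CPM at day 8. The locus, with 1 further circRNA, was called higher at day 8 (adjusted p of limma 0.00175, at most 0.00556 without any 1 library). The Ghr locus (chr15:3275898-3501685, minus strand) had 7 uncatalogued circRNAs, with summed CPM of 116 and 266 at day 0, 43.7 and 99.0 at day 4, and 784 and 663 at day 8. Day 8 lay above the other days. Over all 13 circRNAs of that locus the adjusted p was 0.00771, and without day 8 replicate 1 or 2 it was 0.107 and 0.117.

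Adipogenic regulators hosted 11 uncatalogued circRNAs, in 4 of 19 genes (Ebf1, Nfia, Pparg and Zbtb16). Limma called 0 at day 4 against day 0 (2 at an unadjusted p under 0.05), where 8.12% of all listed circRNAs were called. At day 8, 3 of 11 were higher and 0 lower against day 0 (1 to 2 with 1 library left out), where 7.31% of all listed circRNAs were higher, and of the uncatalogued 18.8% were called in either direction. Against day 4, 2 were higher and 0 lower, where 6.02% of all were higher. Zbtb16 exons 3 to 4 (chr9:48525388-48551666, minus strand) had CPM of 0 in both libraries at day 0, 328 and 99.0 at day 4 and 294 and 450.1 at day 8, above day 0 at day 8 (adjusted p of limma 0.0377, up to 0.243 without any library but day 4 replicate 2). The day 4 libraries of this circRNA differed, with 15 and 4 reads. Pparg exons 3 to 5 (chr6:115389858-115401100, plus strand), from the gene of the nuclear receptor that directs adipocyte differentiation, had CPM of 92.8 and 145 at day 0, 0 and 198 at day 4 and 245 and 261 at day 8, with no call (adjusted p 0.601 for day 8 against day 0). The 4 Ebf1 circRNAs were called in no comparison and had at most 12 reads in a library.

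Genes of preadipocytes, matrix and cytoskeleton hosted 9 uncatalogued circRNAs, in 3 of 28 genes (Fbln2, Fbn1 and Pdlim5). At day 4, 0 were higher and 1 lower than at day 0, where 3.85% of all listed circRNAs were higher and 4.26% lower. At day 8, 1 was higher and 3 were lower than at day 0 (2 to 3 calls with 1 library left out), where 7.31% of all listed circRNAs were higher and 5.01% lower, and 18.8% of the uncatalogued were called in either direction. Against day 4, 1 was higher and 1 lower at day 8, where 6.02% of all listed circRNAs were higher and 3.54% lower. The lower ones at day 8 were Pdlim5 exons 4 to 7, Fbln2 exons 3 to 8 and Fbn1 exons 5 to 6 (chr2:125292339-125294374, minus strand), from the gene of the microfibril protein fibrillin, which had CPM of 92.8 and 96.9 at day 0, 0 in both libraries at day 4 and 0 in both libraries at day 8 from 4 reads in each day 0 library. The higher one was Fbln2 exons 4 to 5 (chr6:91202438-91204615, plus strand), with CPM of 0 in both libraries at day 0, 0 in both libraries at day 4 and 49.0 and 94.8 at day 8. The list thus held circRNAs of 1 gene, Fbln2, that moved in opposite directions, each on few reads.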

How the data were processed

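The authors deposited 1 table of normalized CPM for 3869 circRNAs in 6 libraries, by mm9 position, with each circRNA's circBase identifier where it has one. FastQC 0.11.9, HISAT2 2.2.0 and mm9 are named in the submitters' processing notes. The caller of the circRNAs and the reads it counted are not given in the sources used here. Depth beyond the 40384 to 45733 inferred reads is unknown. Coordinates are 1-based mm9 and were not converted. Fits used limma 3.58.1 (R 4.3.3) on log2(CPM + 43.7), with a trend of variance on mean. The shared-end ratios were fitted without trend. On tables simulated with a dispersion of 0.09, the fit recovered 37.6% of 4-fold and 84.9% of 8-fold changes between days 8 and 0. It called 0.193% of unchanged circRNAs. Recovery is not given by number of reads, and 1068 uncatalogued circRNAs averaged under 10 reads a library. Whether these rates hold for the uncatalogued circRNAs or their calls was not tested. Alternatives were pseudocounts, scalings, a read filter, fewer libraries, no trend, a replicate block and leaving out libraries. Named circRNAs were, per comparison and direction, up to 8 called with the largest fold change, no overlap and at least 10 reads in 2 libraries, the 10 most abundant, those of loci with at least 3 called one way, and those in gene lists. Not every circRNA that this rule names is reported here. Members, lists and rules were chosen with earlier results of these data known. Replicate numbers were not used to pair samples in the main fit. Deviations of same-numbered libraries from their day means had correlations of -0.0248, -0.0200 and -0.0158. The 2 deviations of a day mirror each other, so these values cannot exclude a pairing.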

Additional observations from a re-analysis of the deposited data

How the results depend on the processing

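Depth limits most results: 1068 of 1176 uncatalogued circRNAs averaged under 10 reads a library. No single named circRNA, day-level value or locus sum changed direction under the alternatives run. The balance of higher and lower calls for day 4 against day 0 did, as given next. Counts of calls for day 4 against day 0, day 8 against day 0 and day 8 against day 4 were 8, 22 and 6 with at least 10 reads in 2 libraries, and 0, 122 and 1 without the trend. For day 4 against day 0 it was 17 with the 4 libraries of these days, and with 1 library left out the counts were 103 to 140, 169 to 202 and 152 to 173. By direction, the 66 higher calls of day 4 fell to 41 (day 0 replicate 1 left out) and 43 (day 8 replicate 2 left out), and the 79 lower were 40 and 43 without day 4 replicates 1 and 2, beside 64 and 67 higher. Higher calls also outnumbered lower ones with 4 libraries (10 and 7) and with the read filter (7 and 1). The 92 and 63 lower calls of day 8 were 55 and 38 without day 8 replicate 1 and 51 and 42 without replicate 2. With the replicate block the counts were 147, 219 and 174, and 11 of 35 named calls were lost. Whether the numbers pair the samples is not known. The share of CPM was 17.2%, 16.1% and 19.0% of circRNAs of the same span at days 0, 4 and 8, and 6.48%, 6.39% and 6.57% for those above 0 in all 6 libraries. With at least 5 reads, 423, 382 and 423.5 were detected. The level ratio to catalogued circRNAs was 0.637 to 0.669 with 1 library left out, where p = 0.0625 is the smallest an exact sign-flip permutation test can give. Ratios at shared ends gave 54, 54 and 42 calls with a pseudocount of 1 CPM, again without a share over all circRNAs with a partner. Summed loci, day 8 against day 0, had adjusted p by limma of 0.00534 to 0.117 for Ghr and 0.0461 to 0.212 for Nox4 with 1 library left out, and 0.0646 for Nox4 with a pseudocount of 1 CPM. Of 35 named calls, 10 to 22 held without a given library, 16 with 4 libraries and 12 without the trend. Causes were not tested. The planned count test on recovered reads was not run: the table holds CPM, and no value of 1 read occurs.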
